A study of Mus musculus with 6 samples.

Results

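The endothelial identity and junction genes described here are 36 genes that mark the cells lining blood vessels. They were chosen by gene symbol in the deposited expression table, and all 36 were found there, each with 1 probe set, out of 25206 probe sets in all. Expression was measured on arrays in the choroid plexus of C57BL/6J mice, in an aged group of 20 to 22 months (3 mice, 1 array each) and a young group of 2 to 3 months (3 mice, 1 array each). Both groups were of the same strain with no treatment named. The study set the aged tissue against the young to find genes whose expression changes with age.

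The choroid plexus hangs in the brain ventricles as a sheet of epithelium folded over a stromal core, and the core holds wide capillaries. Unlike most brain capillaries, these vessels are fenestrated: their walls have pores closed by thin diaphragms, and plasma fluid passes through them to the epithelium that makes cerebrospinal fluid. Signalling through vascular endothelial growth factor (VEGF) receptors is known to maintain such fenestrated vessels, and the angiopoietin receptor pathway is known to keep endothelium stable. ETS and SOX family transcription factors drive the endothelial gene programme.

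Levels of the 36 genes were on balance lower in aged choroid plexus, and none differed beyond the threshold set over the whole table. The difference was negative in 34 of the 36 genes, with a median log2 difference (aged minus young) of -0.34, while over all probe sets 50.5% were negative and the median was -0.0018. In limma, a linear model with shared variance estimates, 0 of the 36 genes passed a Benjamini-Hochberg adjusted p of 0.05, against 0.0793% of all probe sets (0.0198% lower and 0.0595% higher). At an unadjusted p under 0.05, 17 genes were lower and 0 were higher, that is 47.2% of them lower, against 3.96% of all probe sets lower and 3.82% higher. All 3 aged values lay below all 3 young values in 17 genes, against 6.93% of all probe sets, and above them in 0, against 6.69%. Since whole tissue was measured, fewer endothelial cells and less RNA per endothelial cell cannot be told apart. The 36 genes were chosen with earlier results of these arrays known, so these counts describe the list and are not independent evidence of its direction.

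**Figure D1:**
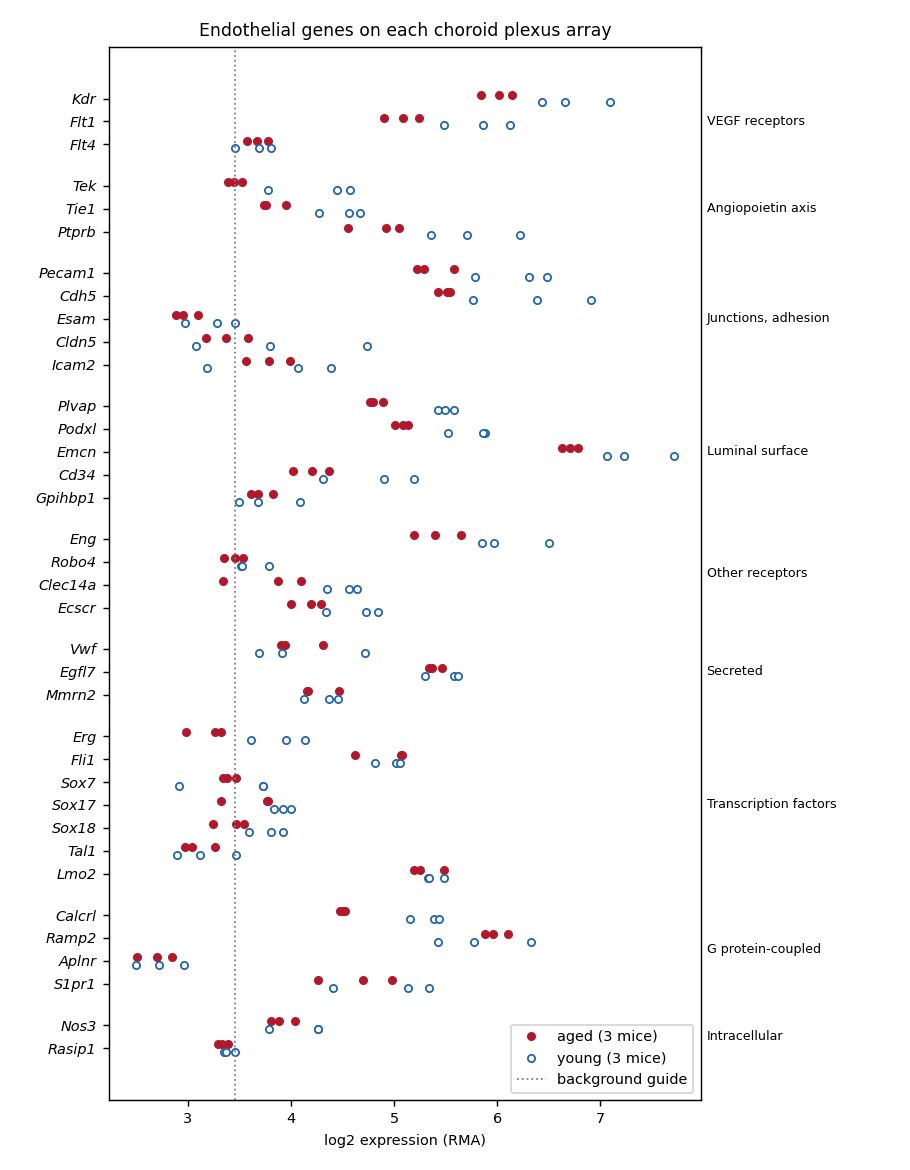
Log2 expression (x axis) of each of the 36 endothelial genes, grouped by role, on the 3 aged arrays (filled, upper row of each gene) and the 3 young arrays (open, lower row); the dotted line is the background guide at 3.46. The aged points of 17 genes lie wholly left of the young points, while those of genes such as Flt4, Vwf and Lmo2 are mixed.

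Array medians lay between 4.03 and 4.09, and correlations between arrays between 0.982 and 0.990. As a guide to background, probe sets of olfactory and vomeronasal receptors, which this tissue is not known to use, had means with a 95th percentile of 3.46. Of the 36 genes 31 had means above that guide, and Esam, Sox7, Tal1, Aplnr and Rasip1 did not. Differences of genes near that level can be understated. Young replicate 1 had the lowest top of the scale, 12.13 against 13.29 to 13.32 on the other arrays, and without it 17 of the 36 genes were lower at an unadjusted p under 0.05, 16 of them among the 17 above. The tissue label was checked against 12 markers of choroid plexus epithelium. All 12 were above the guide, with a list mean between 10.90 and 10.97 on the aged arrays and between 10.67 and 10.99 on the young ones. Of 13 endothelial markers, all among the 36 genes, Pecam1, Cdh5, Kdr, Flt1, Emcn and Plvap were among those above the guide on every array. Esam lay under it on every array, and Tek and Cldn5 lay under it on some arrays.

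Among the VEGF receptors, Kdr and Flt1 had lower levels in aged tissue and Flt4, close to the background guide, did not. Kdr, the main signalling receptor for VEGF-A in vessels, measured 6.01, 6.15 and 5.85 (log2) on the aged arrays, against 7.09, 6.66 and 6.43 on the young arrays. Flt1, which binds the same ligand tightly and can act as a decoy, measured 5.08, 4.91 and 5.25 in aged, against 6.13, 5.49 and 5.86 in young tissue. All aged values lay below all young values for both genes, as they did for 6.93% of all probe sets. The log2 difference was -0.73 (SE 0.18) for Kdr and -0.75 (SE 0.18) for Flt1, at limma adjusted p of 0.386 and 0.371. Flt4, the receptor for VEGF-C and VEGF-D best known from lymphatic vessels and also present on fenestrated capillaries, measured 3.67, 3.57 and 3.78 in aged, against 3.80, 3.69 and 3.45 in young tissue. Its groups overlapped fully, and the difference was 0.02 with a 95% interval of -0.28 to 0.32. The sign of that difference turned with further quantile normalization and with centring on the epithelial markers. Flt4 lay close to the background guide of 3.46 on every array, so a difference in it may be understated.

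All 3 genes of the angiopoietin receptor axis were lower in aged tissue without overlap, as were 6.93% of all probe sets. Tek, the angiopoietin receptor TIE2, measured 3.52, 3.39 and 3.45 in aged, against 4.58, 3.78 and 4.44 in young tissue. Its partner Tie1 measured 3.95, 3.73 and 3.75 in aged, against 4.67, 4.28 and 4.56 in young tissue. Ptprb, the phosphatase VE-PTP that dampens TIE2 and acts at endothelial junctions, measured 5.05, 4.56 and 4.92 in aged, against 5.71, 5.36 and 6.22 in young tissue. The 3 aged values of Tek lay at the background guide, so its difference of -0.81 (SE 0.20) may be understated. Tie1 differed by -0.69 (SE 0.14) and Ptprb by -0.92 (SE 0.23), the largest difference among the 36 genes. Limma adjusted p-values of these 3 genes ran from 0.246 to 0.388, and each was lower at an unadjusted p under 0.05 in all 6 fits that left out 1 array.

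The 4 genes of G protein-coupled receptors and a receptor partner were mixed, and one of them had the smallest p of the list. Calcrl encodes the calcitonin receptor-like receptor, which binds adrenomedullin when paired with the accessory protein that Ramp2 encodes, and this pair is known to be needed for vessel integrity. Calcrl measured 4.52, 4.47 and 4.50 in aged, against 5.38, 5.16 and 5.44 in young tissue, so the aged arrays nearly coincided, and every one lay below the young range. It differed by -0.83 on the log2 scale (95% interval -1.09 to -0.56), a level 1.77-fold lower in aged tissue (limma adjusted p = 0.0715). It passed when limma was run only on probe sets above the array median on at least 3 arrays (adjusted p = 0.0458, where 0.220% of the 12735 probe sets were called). In the authors' deposited table, of the 36 genes, 20 have a q-value over a filtered subset, and Calcrl was the 1 with a value under 0.05, at 0.0439. Those q-values rest on the same arrays, and the deposited p-values matched the limma p-values (largest difference 4.5e-13). The same 20 genes were tested under both filters. The q-value is therefore not separate evidence for Calcrl. Leaving out 1 array gave differences from -0.91 to -0.77, with limma adjusted p from 0.105 to 0.310.

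Ramp2 measured 5.88, 5.96 and 6.10 in aged, against 5.78, 5.43 and 6.33 in young tissue, with a difference of 0.14 (95% interval -0.36 to 0.64). The aged values lay within the young range. The direction of Ramp2 depended on single arrays, since the difference was -0.069 without young replicate 2 and 0.38 without young replicate 3. S1pr1, a sphingosine 1-phosphate receptor that strengthens endothelial junctions, measured 4.98, 4.26 and 4.70 in aged, against 5.14, 4.41 and 5.34 in young tissue. Its groups overlapped, with a difference of -0.31 (95% interval -0.93 to 0.30). That difference was -0.59 without young replicate 2, -0.12 without aged replicate 2 and -0.13 without young replicate 3. Aplnr, the apelin receptor, lay under the background guide with means of 2.69 in aged and 2.72 in young tissue.

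Ratios between related genes were also taken within each array. These pairs were chosen after their values were seen, so no test is given, and each ratio is set relative to its young mean. The log2 ratio of Calcrl to Ramp2 was -0.85, -0.97 and -1.08 on the aged arrays, against 0.13, 0.25 and -0.37 on the young arrays. The ratio of Kdr to Flt4 was -0.73, -0.50 and -1.01 in aged, against 0.21, -0.11 and -0.10 in young tissue. The ratio of Erg to Fli1, 2 ETS factors described below, was -0.68, -0.29 and -1.03 in aged, against 0.00, -0.15 and 0.14 in young tissue. All 3 aged values of Erg lay under the background guide, so the size of that ratio is uncertain. Flt4 lay close to the guide on every array, so the size of the ratio of Kdr to Flt4 is also uncertain. For Calcrl to Ramp2, Kdr to Flt4 and Erg to Fli1 every aged array lay below every young array.

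**Figure D2:**
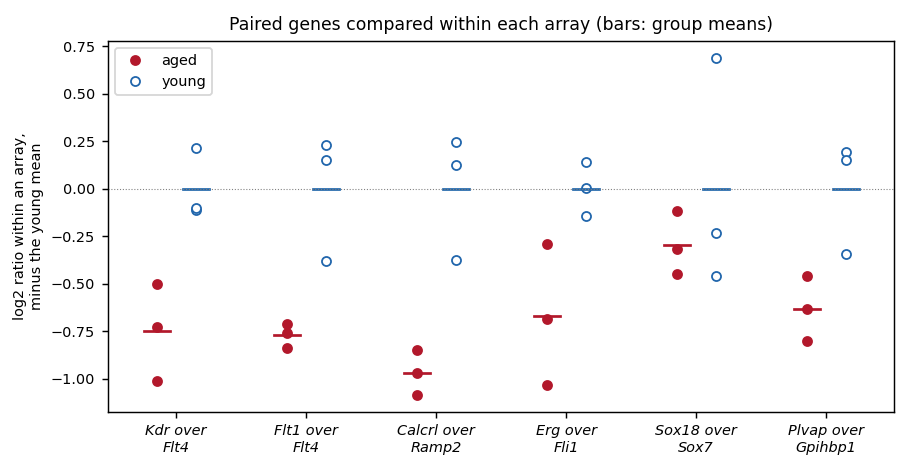
Log2 ratio of paired genes within each array, minus the mean ratio of the young arrays (y axis), for the 3 aged (filled) and 3 young (open) arrays; bars are group means. Aged points lie below all young points for every pair drawn except Sox18 over Sox7, where they overlap.

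The promoters of receptor genes described above are shown so that Kdr, Flt1, Tek, Tie1 and Calcrl can be read beside Flt4, among the genes for which a window was at hand. Ptprb, Plvap and Podxl are named only. The windows come from RefSeq (build GRCm38.p6), run 5′ to 3′ on the strand of the gene and hold 250 bases before and 50 after its start. Calcrl is at chr2:84425217-84425516 on the minus strand, Tek at chr4:94739039-94739338 on the plus strand and Tie1 at chr4:118489800-118490099 on the minus strand. Kdr is at chr5:75978406-75978705 and Flt1 at chr5:147725962-147726261, both on the minus strand, and Flt4 is at chr11:49609429-49609728 on the plus strand. Capitals mark the letters GGAAG, the core that ETS factors such as ERG read, or CTTCC, the same core on the other strand.
Calcrl: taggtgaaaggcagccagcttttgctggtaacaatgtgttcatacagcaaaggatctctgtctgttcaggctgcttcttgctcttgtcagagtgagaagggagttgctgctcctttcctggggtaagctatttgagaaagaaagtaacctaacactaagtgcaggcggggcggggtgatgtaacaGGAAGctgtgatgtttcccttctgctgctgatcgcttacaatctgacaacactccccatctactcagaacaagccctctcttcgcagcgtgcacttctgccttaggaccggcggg
Tek: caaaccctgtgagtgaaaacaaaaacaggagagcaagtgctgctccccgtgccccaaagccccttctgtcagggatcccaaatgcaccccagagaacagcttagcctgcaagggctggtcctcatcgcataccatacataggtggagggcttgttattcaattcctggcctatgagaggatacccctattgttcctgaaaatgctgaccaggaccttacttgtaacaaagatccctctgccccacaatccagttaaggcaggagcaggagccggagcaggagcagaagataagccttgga
Tie1: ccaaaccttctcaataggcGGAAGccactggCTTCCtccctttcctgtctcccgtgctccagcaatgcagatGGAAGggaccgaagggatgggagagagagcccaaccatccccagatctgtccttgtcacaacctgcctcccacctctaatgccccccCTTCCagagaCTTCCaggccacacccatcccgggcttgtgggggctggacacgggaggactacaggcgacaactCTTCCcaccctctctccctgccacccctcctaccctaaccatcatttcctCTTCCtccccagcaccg
Kdr: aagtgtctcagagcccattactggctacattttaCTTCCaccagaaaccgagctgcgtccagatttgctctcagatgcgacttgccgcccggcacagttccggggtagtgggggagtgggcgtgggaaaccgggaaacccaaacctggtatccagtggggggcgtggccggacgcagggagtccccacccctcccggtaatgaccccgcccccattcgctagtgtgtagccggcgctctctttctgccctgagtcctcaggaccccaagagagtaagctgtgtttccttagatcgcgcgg
Flt1: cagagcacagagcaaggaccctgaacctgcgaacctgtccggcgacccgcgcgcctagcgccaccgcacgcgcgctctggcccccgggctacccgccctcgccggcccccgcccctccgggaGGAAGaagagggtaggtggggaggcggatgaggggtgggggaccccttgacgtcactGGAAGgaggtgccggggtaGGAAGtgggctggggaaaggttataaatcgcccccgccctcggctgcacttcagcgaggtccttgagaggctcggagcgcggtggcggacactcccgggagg
Flt4: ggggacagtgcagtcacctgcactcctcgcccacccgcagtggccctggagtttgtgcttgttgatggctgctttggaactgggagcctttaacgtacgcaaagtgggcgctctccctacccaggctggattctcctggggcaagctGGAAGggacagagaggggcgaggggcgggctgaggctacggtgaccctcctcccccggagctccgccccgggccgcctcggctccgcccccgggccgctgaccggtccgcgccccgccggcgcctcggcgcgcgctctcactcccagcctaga

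The core occurred 7 times in the Tie1 window, 3 times in that of Flt1, 1 time each in those of Calcrl, Kdr and Flt4, and 0 times in that of Tek. At least 1 copy was present in 71.5% of the 17705 promoter windows matched to the table, and 7 or more in 0.192%. The letters AGATAA, read by GATA factors, occurred 1 time in the Tek window and 0 times in the other 5 shown, and were present on either strand in 9.75% of all windows. The letters ACAAT, a SOX core, occurred 2 times each in the Calcrl and Tek windows and 0 times in the other 4, and were present in 27.4% of all windows. Both strands were searched for each motif, and the ETS and GATA letters can overlap, since GGAAG ends in the letters that AGATAA begins with. Windows were at hand for 16 of the 36 genes, which is 44.4%, so a comparison of the list with other promoters is void and none is made. A match is a run of letters and not a known site.

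Of 5 genes of the cell junctions and the adhesive surface, 2 were lower at an unadjusted p under 0.05, Pecam1 and Cdh5, against 3.96% of all probe sets. The tight junction gene and others, nearer the background guide, scattered. Pecam1, an adhesion molecule of endothelial contacts, measured 5.22, 5.58 and 5.29 in aged, against 6.31, 5.78 and 6.48 in young tissue. Cdh5, VE-cadherin of the adherens junction, measured 5.54, 5.43 and 5.51 in aged, against 6.39, 5.77 and 6.91 in young tissue. All aged values lay below all young values for both genes, as they did for 6.93% of all probe sets. Young replicate 2 was the lowest young array for both. The log2 differences were -0.83 (SE 0.19) and -0.86 (SE 0.26), at limma adjusted p of 0.360 and 0.465. Cldn5, the main claudin of tight endothelial junctions, measured 3.59, 3.37 and 3.18 in aged, against 3.80, 3.08 and 4.74 in young tissue. Its difference of -0.50 depended on single arrays, at -0.063 without young replicate 3 and -0.89 without young replicate 2. Esam and Icam2, further adhesion molecules, differed by -0.26 and -0.10 with overlapping groups. Icam2 was at 0.15 without young replicate 3 and -0.45 without young replicate 2. The aged mean of Cldn5, 3.38, lay under the background guide, and Esam lay under it on every array. Differences of Cldn5 and Esam may therefore be understated.

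Of the 5 genes of the luminal surface, 4 were lower at an unadjusted p under 0.05, against 3.96% of all probe sets. Plvap, the protein of the diaphragms that close fenestrae, measured 4.89, 4.77 and 4.80 in aged, against 5.43, 5.49 and 5.58 in young tissue. Podxl, a sialomucin of the luminal coat, measured 5.005, 5.14 and 5.09 in aged, against 5.88, 5.52 and 5.86 in young tissue. Neither gene had overlapping groups. The SD was 0.064 in aged and 0.076 in young tissue for Plvap, and 0.067 and 0.20 for Podxl. Both were 1.60-fold lower in aged tissue, at limma adjusted p of 0.119 for Plvap and 0.212 for Podxl. Emcn, another sialomucin typical of capillaries and veins, measured 6.78, 6.63 and 6.70 in aged, against 7.71, 7.06 and 7.23 in young tissue. Cd34 measured 4.20, 4.02 and 4.37 in aged, against 4.90, 4.31 and 5.19 in young tissue. Its groups overlapped, since aged replicate 3 lay above young replicate 2, and it was lower at an unadjusted p under 0.05 in only 3 of the 6 fits without 1 array. Gpihbp1, which carries lipoprotein lipase to the capillary wall, differed by -0.05 with a 95% interval of -0.43 to 0.33.

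Of 4 further surface receptors, 3 were lower at an unadjusted p under 0.05, against 3.96% of all probe sets. Eng, endoglin, a co-receptor for bone morphogenetic proteins, measured 5.65, 5.19 and 5.39 in aged, against 5.97, 5.85 and 6.50 in young tissue. Clec14a, a lectin-like receptor of endothelium, measured 3.87, 4.10 and 3.34 in aged, against 4.35, 4.64 and 4.56 in young tissue. Ecscr, a small endothelial membrane protein, measured 4.20, 4.003 and 4.29 in aged, against 4.34, 4.73 and 4.84 in young tissue. All aged values lay below all young values for these 3 genes, as they did for 6.93% of all probe sets. The log2 differences were -0.70, -0.75 and -0.47, at limma adjusted p between 0.399 and 0.519. Ecscr came close to overlap, at aged replicate 3 and young replicate 1, and it passed in only 3 of the 6 fits without 1 array. Robo4, a roundabout receptor that limits vessel leakage, differed by -0.16 with a 95% interval of -0.44 to 0.12.

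The secreted and intracellular genes did not pass at an unadjusted p under 0.05. Vwf, the clotting factor stored in endothelial granules, differed by -0.05, and Egfl7 and Mmrn2, which endothelium deposits in the vessel matrix, by -0.11 and -0.06. Vwf measured 4.31, 3.91 and 3.94 in aged, against 3.91, 3.69 and 4.72 in young tissue, and its difference was 0.25 without young replicate 3 and -0.26 without young replicate 2. Nos3, the endothelial nitric oxide synthase, differed by -0.19 (95% interval -0.55 to 0.17), and Rasip1, a regulator of vessel lumen formation, by -0.06 at a level under the background guide. The 95% intervals were -0.39 to 0.17 for Egfl7 and -0.38 to 0.26 for Mmrn2.

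Of the 7 transcription factor genes, 2 were lower at an unadjusted p under 0.05, Erg and Sox18, against 3.96% of all probe sets. Erg, the ETS factor that maintains endothelial identity, measured 3.32, 3.26 and 2.98 in aged, against 3.96, 3.61 and 4.14 in young tissue. Every aged value of Erg lay under the background guide and every young value above it, so the difference of -0.71 (SE 0.17, limma adjusted p = 0.360) may be understated. Fli1, the related ETS factor that blood cells also use, measured 5.07, 4.62 and 5.08 in aged, against 5.02, 4.82 and 5.06 in young tissue. Its groups overlapped, with a difference of -0.04 (95% interval -0.40 to 0.31).

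The SOX factors of the F group act together in vessel development. Sox18 measured 3.54, 3.47 and 3.24 in aged, against 3.59, 3.81 and 3.92 in young tissue. Sox17 measured 3.77, 3.78 and 3.32 in aged, against 3.93, 3.83 and 3.996 in young tissue. Sox7 measured 3.35, 3.47 and 3.38 in aged, against 3.73, 3.72 and 2.92 in young tissue. The groups of Sox18 and Sox17 did not overlap but came close to it, whereas Sox7 overlapped through young replicate 3, and all 3 genes lay close to the background guide. Their log2 differences were -0.36, -0.30 and -0.06, and Sox18 had an unadjusted p under 0.05 in 3 of the 6 fits without 1 array.

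Tal1 and Lmo2, partners in a complex that blood and vessel precursors share, did not separate the groups. Tal1 measured 3.04, 3.26 and 2.97 in aged, against 2.90, 3.47 and 3.12 in young tissue, under the background guide on average. Lmo2 measured 5.25, 5.49 and 5.19 in aged, against 5.48, 5.33 and 5.34 in young tissue. Their differences were -0.07 and -0.08, with intervals of -0.45 to 0.31 and -0.35 to 0.20.

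**Figure D3:**
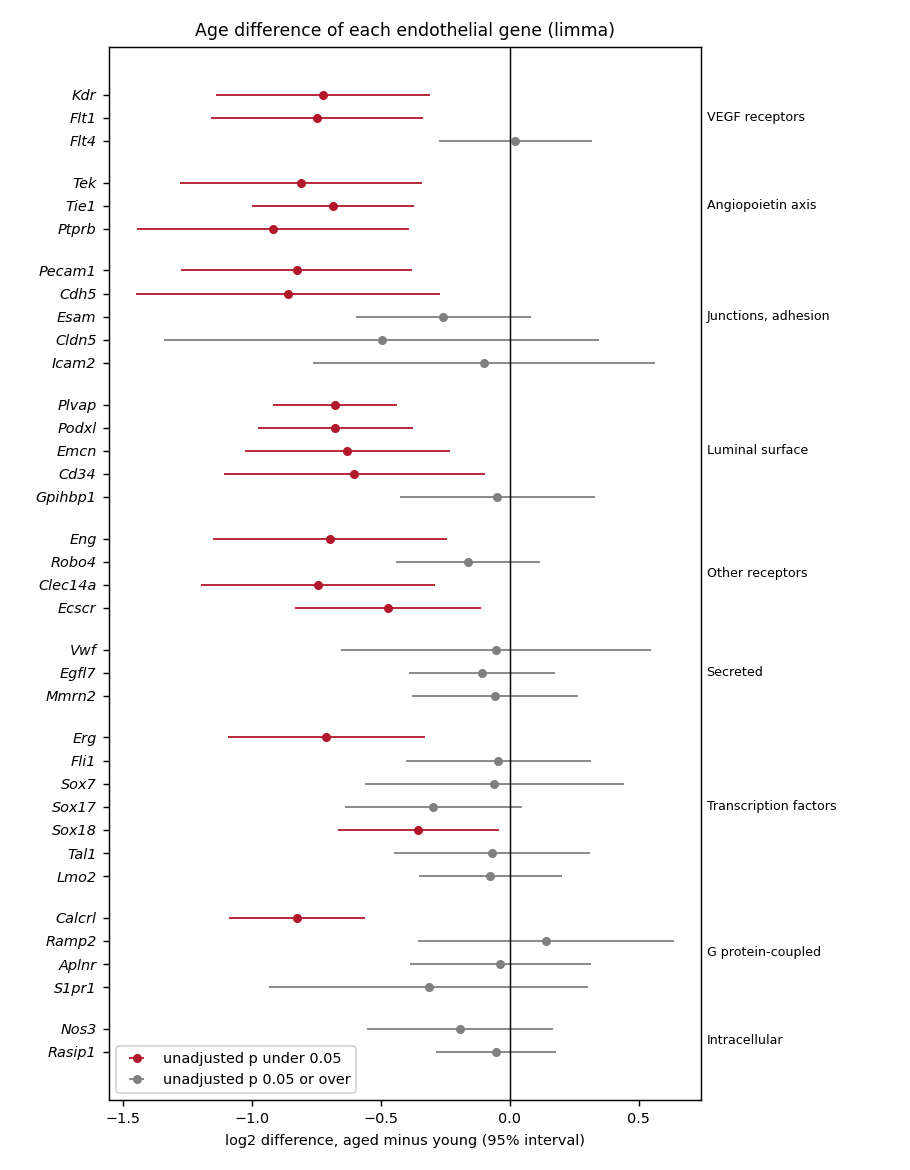
Log2 difference, aged minus young, with its 95% limma interval (x axis) for each of the 36 genes by role; red marks an unadjusted p under 0.05. The 17 red genes lie between -0.92 and -0.36, and none of the 36 passes adjustment over all probe sets.

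The aged arrays were also more alike in these genes than the young arrays were. The SD over aged arrays was below the SD over young arrays in 31 of the 36 genes (86.1%), against 48.2% of all probe sets. The median SD of the 36 genes was 0.15 in aged and 0.27 in young tissue, while over all probe sets it was 0.15 in both. With 1 array left out the count lay between 23 and 33 genes. It was 23 genes (63.9%) without young replicate 3, against 40.4% of all probe sets. Without aged replicate 2 it was 33 genes (91.7%), against 60.5%. Within the young group, replicate 3 was highest for 21 genes and replicate 2 lowest for 24, and the mean of the 36 genes was 4.73, 4.52 and 4.85 on young replicates 1 to 3. On aged replicates 1 to 3 it was 4.34, 4.30 and 4.26, each below every young mean.

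Of the markers of other cell types 0 passed an adjusted p of 0.05 in limma, and some had an unadjusted p under 0.05. Over all probe sets, 3.96% were lower and 3.82% higher at that unadjusted p. The part of these markers in the endothelial differences was not tested. Of 12 mural cell markers, 2 were lower at an unadjusted p under 0.05, Rgs5 by -0.73 and Pdgfrb by -0.82, with a list median of -0.31. The mural list mean ran from 4.64 to 4.75 in aged and from 4.74 to 5.38 in young tissue, and 2 markers lay under the guide. Of 10 fibroblast markers 4 were lower (median -0.54), with list means from 5.84 to 6.31 in aged and from 6.25 to 7.20 in young tissue and 1 marker under the guide. Young replicate 3 had the highest mural and fibroblast means of all arrays, and without it 14 of the 17 lower endothelial genes kept an unadjusted p under 0.05 (Cd34, Ecscr and Sox18 did not), with a median difference of -0.27 over the 36 genes.

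Of 12 macrophage markers, at an unadjusted p under 0.05, 8 were higher and 1 was lower (median 0.67), with list means from 4.996 to 5.58 in aged and from 4.37 to 4.87 in young tissue and 1 marker under the guide. Of 12 epithelial markers 0 passed at an unadjusted p under 0.05 or after adjustment, with a median of 0.10. Markers of brain tissue and ependyma, 9 genes, varied widely among aged mice. Their mean was 7.56, 5.44 and 6.79 on aged replicates 1 to 3, where the mean of the 36 endothelial genes was 4.34, 4.30 and 4.26, and it ranged from 6.37 to 7.20 in young tissue. In the young group that list and the endothelial genes had the same order of arrays, highest on replicate 3 and lowest on replicate 2. Red blood cell markers (4 of 6 measured) had 0 and platelet markers (5) had 1 lower and 1 higher member at an unadjusted p under 0.05, with 3 members of each list under the guide.

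**Figure D4:**
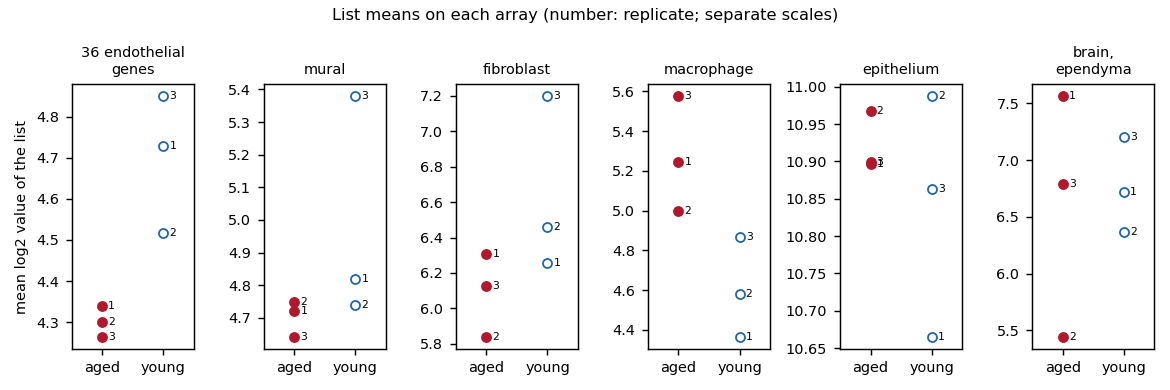
Mean log2 value of the 36 endothelial genes and of each marker list on every array (y axes, separate scales), aged arrays on the left and young arrays on the right, numbered by replicate. The aged endothelial means (4.26 to 4.34) lie below the young ones (4.52 to 4.85), the macrophage means lie above, and the brain list spreads most among aged arrays.

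Other genes of the vessel wall gave a graded picture. Of 18 further endothelial genes, 5 were lower and 0 higher at an unadjusted p under 0.05, against 3.96% and 3.82% of all probe sets. The median of the 18 genes was -0.23, with 0 called after adjustment and 2 under the background guide. Adgrf5, an adhesion G protein-coupled receptor, measured 5.20, 4.88 and 5.08 in aged, against 6.29, 6.05 and 5.85 in young tissue (difference -1.01, limma adjusted p = 0.0960). Thbd, thrombomodulin, which restrains clotting, differed by -1.04, and the related receptor Adgrl4 by -0.71. These 3 genes were named for having the smallest p of the 18, and their groups did not overlap. All aged values lay below all young values in 6 of the 18 genes, against 6.93% of all probe sets.

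Arterial, venous and lymphatic markers did not share one direction. Over all probe sets, 3.96% were lower and 3.82% higher at an unadjusted p under 0.05, the threshold used for the counts that follow. Of 9 arterial markers 1 was lower at an unadjusted p under 0.05, Efnb2, the ephrin ligand of arterial endothelium, by -1.42, and the median was -0.16. Of 5 venous markers 0 passed in either direction (median 0.12), and of 4 lymphatic markers measured, Pdpn, which epithelium also makes, was higher by 0.31. Of 10 Notch pathway genes 0 passed in either direction (median 0.03). Of 13 genes of barrier endothelium and Wnt signalling, Itm2a was lower by -0.96 and the efflux pump Abcg2 higher by 0.61, with a median of -0.01. Under the background guide lay 3 arterial, 2 venous, 2 lymphatic and 2 Notch pathway genes, so their differences may be understated. Many genes of these lists are also made by the epithelium and other cells of this tissue.

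Among 12 partners of the junctions, most of them also used by epithelium, 1 was lower at an unadjusted p under 0.05, against 3.96% of all probe sets. It was Jam3, a junctional adhesion molecule, lower by -0.85, and the median of the list was -0.10. Among 14 ligands of the receptors described here, 3 were lower and 1 higher at that p, against 3.96% and 3.82% of all probe sets. Under the background guide lay 6 of the ligands. Angpt1, the activating ligand of the receptor encoded by Tek, measured 4.36, 3.20 and 3.43 in aged, against 5.38, 5.04 and 5.01 in young tissue, and differed by -1.48 (limma adjusted p = 0.212). Angpt2, its context-dependent antagonist, differed by -0.63 and Slit3 by -0.81. Vegfa, the ligand of Kdr and Flt1, measured 8.19, 8.55 and 8.35 in aged, against 8.54, 8.15 and 8.18 in young tissue, with a difference of 0.07, and Vegfb was higher by 0.36.

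**Figure D5:**
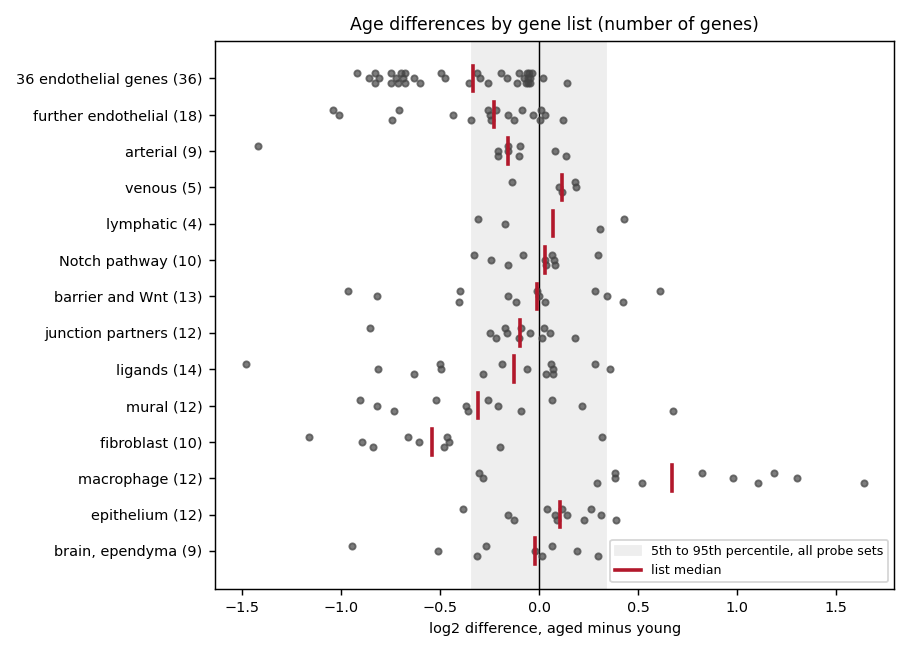
Log2 differences, aged minus young (x axis), of single genes (points) by list, with list medians (red bars); the grey band runs from the 5th to the 95th percentile of all probe sets (-0.34 to 0.34). The median of the 36 endothelial genes is -0.34, those of mural and fibroblast markers are -0.31 and -0.54, and that of macrophage markers is 0.67.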

How the data were processed

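Total RNA of choroid plexus was hybridised to arrays, and 3 aged and 3 young mice gave 1 array each, per the labels. The authors deposited log2 expression values per Brainarray probe set, made with RMA, per the file headers and the submitters' processing notes, which also name limma 3.14.4. The authors' deposited table also holds a score (the t statistic), p-values, q-values and a signed fold for aged against young. The array model is not given in the sources used here, nor is a genome build. Symbols were updated by Entrez identifier through a RefSeq table (GRCm38.p6), which matched 23740 of 25206 probe sets.

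All 25206 probe sets were fitted with limma 3.58.1 in R 4.3.3 (lmFit, eBayes, 1 term for age, no filter), with Benjamini-Hochberg adjustment over all of them and a threshold of 0.05. The unadjusted p under 0.05 serves only to count. Errors are given as SD across a group's 3 arrays, as moderated SE or as 95% intervals. The number of arrays limits the precision. RMA makes array distributions alike and compresses differences near background. The fit was tested on simulated data, in 10 runs with 200 changed probe sets each. A log2 difference of 0.5 was called in 3% of cases, of 1 in 67.4% and of 2 in 96.6%. On average 7.3 unchanged probe sets were called per run. The simulated spread was drawn from the shared variance estimates, so the share called on the real arrays may differ.

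The 36 genes, the 16 other lists (162 of 165 entries matched) and the role groups were chosen with earlier results of these data known. Every one of the 36 genes is named. Values per array are given for the 16 with the smallest p, for the VEGF receptors, angiopoietin axis and transcription factors, and, chosen after their values were seen, for Ramp2, S1pr1, Cldn5 and Vwf. From other lists up to 3 genes with the smallest p were named, and, after their values were seen, Vegfa, Vegfb, Prox1, Snap25 and Syt1. Alternatives were the rounded value table, renormalization, centring on array medians or epithelial markers, filters on dim probe sets, other variance and weight settings, the replicate number as a block, and leaving out each array. Of per-sample columns 0 were left aside. Same-numbered arrays of the groups had correlations of their deviations from the group means of -0.02, 0.15 and -0.05. Deviations within a group of 3 arrays are tied to each other, so these values do not decide whether the numbers pair the mice.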

Additional observations from a re-analysis of the deposited data

How the results depend on the processing

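Over 15 alternatives, the 17 genes with an unadjusted p under 0.05 kept a negative log2 difference (aged minus young) wherever they were tested, and 10 of the other 19 genes changed sign in at least 1 setting. Restricting the table to probe sets above the array median on at least 3 arrays left 20 of the 36 genes, which by construction moved 3 summaries: 1 gene was called (Calcrl, at -0.83), the median was -0.68 and 19 differences were negative. Erg, Sox18 and Tek were among the genes not tested there. That filter is tied to the contrast, since a gene above the median on the 3 young arrays alone passes, as Tie1 did. The median and the count of negative differences under it are therefore not separate evidence of direction. Calcrl lay above the median on every array. Flt4 changed sign with further quantile normalization (-0.0012) and with centring on epithelial markers (-0.050), which moved the median of all probe sets to -0.07, and array weights gave 0.019 for Fli1 and 0.020 for Vwf. Leaving out each array gave 15 to 19 genes lower and 0 to 1 higher at an unadjusted p under 0.05, the one being Ramp2 without young replicate 3, 31 to 33 negative differences, 0 genes called and medians from -0.45 to -0.27. Over these fits differences ran from -0.078 to 0.098 for Flt4, -0.12 to 0.11 for Fli1, -0.33 to 0.077 for Sox7, -0.20 to 0.085 for Tal1, -0.26 to 0.25 for Vwf, -0.16 to 0.010 for Mmrn2, -0.18 to 0.12 for Gpihbp1, -0.15 to 0.080 for Aplnr, -0.45 to 0.15 for Icam2 and -0.069 to 0.38 for Ramp2. The cause of these sign changes was not tested. With the replicate number as a block, 16 genes were lower at an unadjusted p under 0.05, 0 were called and the median was -0.34, and Sox18 was the gene that no longer counted. Whether the labels' numbers pair the mice was not decided. Differences of genes near the background guide may be understated.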

Other observations

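Prox1, a transcription factor of lymphatic endothelium that some neurons also make, measured 4.84 on aged replicate 1 and between 2.56 and 3.08 on the other 5 arrays. Aged replicate 1 also had the highest values of the neuronal genes Snap25 (10.61) and Syt1 (8.49), and aged replicate 2 the lowest (6.16 and 5.11). Lyve1, a hyaluronan receptor of lymphatic endothelium and some macrophages, measured 3.57, 3.89 and 3.37 in aged, against 3.73, 3.52 and 4.50 in young tissue. Of the fibroblast markers, Ogn, a small matrix proteoglycan, had the smallest p and measured 8.56, 8.44 and 8.55 in aged, against 9.15, 9.49 and 9.44 in young tissue (limma adjusted p = 0.105).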
